A study of Rattus norvegicus with 10 samples.

Results

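The liver response at 1 h after a burn was measured by comparing the 2 expression arrays of rat liver taken 1 h after the injury with the 2 arrays of sham rats, which the labels give as 0 h. These 4 arrays were chosen by their titles from the 10 arrays of the series, and every probe set on them was considered. The other 6 arrays, 2 each at 4 h, 8 h and 24 h after the burn, served as the later burn arrays and lent their spread to the statistical model. All animals were rats, and each group was defined by sham or burn treatment and time alone: the sources used here give no strain, sex, age, genotype, anaesthesia or extent of the burn. They also leave unstated whether 2 arrays of a group stand for 2 animals, a pool or repeat runs, so the p-values cover the spread from array to array, and this spread may be technical.

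The liver answers injury through hormones and cytokines that reach it in the blood. Glucocorticoids, glucagon and catecholamines act within minutes to hours on genes of amino acid breakdown and glucose release, whereas the acute phase proteins driven by cytokines build up over many hours. Liver also holds the cytochrome P450 and conjugating enzymes that clear drugs and steroids, many of which differ between male and female rats because they follow the pattern of growth hormone secretion. Digestive proenzymes such as trypsinogen are products of the acinar cells of the pancreas, which is a neighbouring organ.

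The values were intensities on a linear scale, and all values under 36.4 were raised to this floor before log2 was taken. Of 8799 probe sets, 5254 were tested. Controls aside, a filter kept those above an array's median on at least 2 of 10 arrays. On all 10 arrays the mean after trimming 2% at each end was 500.9 to 501.0, and 70.3% to 76.8% of values lay above the floor. The sham arrays correlated with each other at 0.948 and the 1 h arrays at 0.953 on the log2 scale, and the pairs of a sham and a 1 h array at 0.933 to 0.940. The ratio of the 3′ to the 5′ control probe set of beta-actin, a measure of RNA integrity, was 0.83 and 0.95 on the sham arrays and 1.22 and 1.06 on the 1 h arrays. Its part in the results was not tested. The labelled tissue was borne out by the markers of hepatocytes: the albumin gene Alb read 58002 and 85464 in sham and 59539 and 79327 at 1 h on rc_AA945321_at, and Ttr, which encodes the plasma carrier transthyretin, 36988 and 38949.8 in sham against 41901 and 43564 at 1 h on rc_AA945169_at. The summed intensity of the 32 hepatocyte markers was 812395 and 926983 on the sham arrays and 834727 and 917679 on the 1 h arrays, so the groups overlapped, and 2 of the 32, Cyp2c11 and Tat, were called higher.

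limma called 76 of 5254 probe sets at a Benjamini-Hochberg adjusted p under 0.05 (1.45%), of which 42 were higher (0.799%) and 34 lower (0.647%) at 1 h than in sham. They named 55 genes, 33 higher and 22 lower, and 13 probe sets stayed unnamed. All 76 had both 1 h arrays beyond both sham arrays, as did 42.7% of all tested probe sets. The median log2 change over all 5254 was 0.015, and 72 of the 76 differed over 2-fold. A fold is written as at least a value where both arrays of the lower group were under the floor, which held for 10 of the 76, and the fold of 7 more rests in part on a value raised to the floor. With only the 4 arrays of the comparison in the fit, limma called 0 probe sets, while 573 had an unadjusted p under 0.05, against 633 in the fit to all 10 arrays. The calls therefore rest on the spread shared over the 5 groups. The number called also fell to 41 without 1 h array 1, 29 without 1 h array 2 and 33 without sham array 2, and of these 32, 25 and 27 were among the 76.

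**Figure D1:**
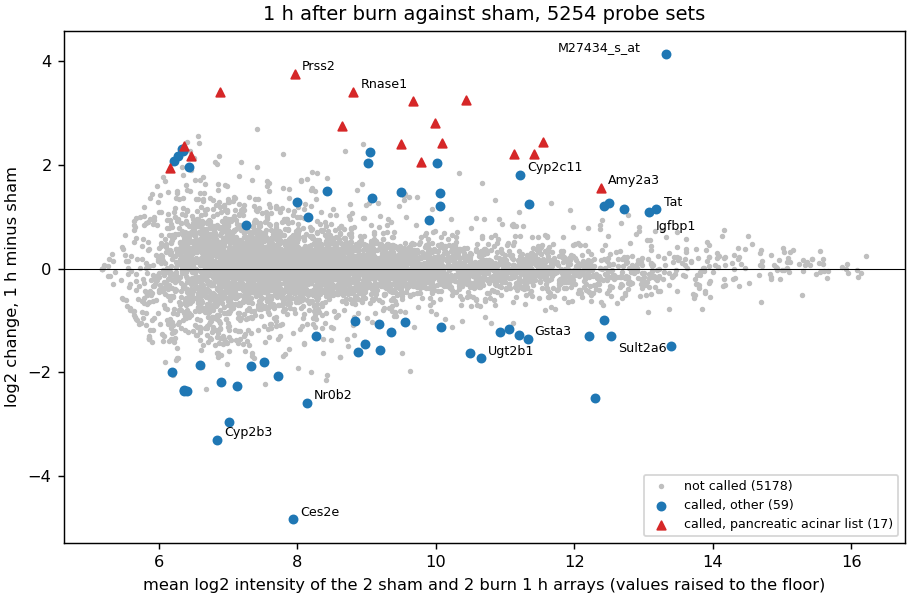
Log2 change at 1 h against sham (vertical axis) by mean log2 intensity of the 4 arrays (horizontal axis) for 5254 probe sets, in grey where not called, in blue for 59 called probe sets and as red triangles for 17 called probe sets of pancreatic acinar genes. The red triangles lie between log2 changes of 1.55 and 3.75 across a wide range of intensity, and no called acinar probe set lies below 0.

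Genes of the exocrine pancreas made up 17 of the 42 higher probe sets and 0 of the 34 lower ones. Of 32 acinar marker genes on the array, 26 were tested on 1 probe set each, and 14 rose, 0 fell and 12 did not pass, with a median log2 change of 2.23 beside 0.015 over all probe sets. Reg1a rose on its other probe set, which makes 15 genes. Of the 17 probe sets, Gp2, Prss3bl1, Prss2 on L00131cds_s_at and Reg1a on M62930_at passed the filter only through the 1 h arrays. They were tested only because they were high at 1 h, so their rise was in part set by the filter. They were also called without the filter. The list was kept with earlier results of these data in view and is not independent evidence. The promoters of 4 genes on which this group turns are shown here, as 250 bases before and 50 bases after the start site in RefSeq's assembly GRCr8. Capitals mark, on either strand, CACCTG and TTTCCC, the parts of the element bound by the acinar factor PTF1 (CAGGTG and GGGAAA on the other strand), and TATAAA, the TATA box.
Prss1, chr4:71330999-71331298, plus strand: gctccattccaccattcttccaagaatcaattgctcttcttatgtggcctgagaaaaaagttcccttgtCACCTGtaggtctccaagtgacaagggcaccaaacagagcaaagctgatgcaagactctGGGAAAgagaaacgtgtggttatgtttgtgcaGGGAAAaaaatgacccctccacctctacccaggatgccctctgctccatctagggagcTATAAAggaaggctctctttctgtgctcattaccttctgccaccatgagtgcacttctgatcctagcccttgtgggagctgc
Ctrb1, chr19:56566929-56567228, minus strand: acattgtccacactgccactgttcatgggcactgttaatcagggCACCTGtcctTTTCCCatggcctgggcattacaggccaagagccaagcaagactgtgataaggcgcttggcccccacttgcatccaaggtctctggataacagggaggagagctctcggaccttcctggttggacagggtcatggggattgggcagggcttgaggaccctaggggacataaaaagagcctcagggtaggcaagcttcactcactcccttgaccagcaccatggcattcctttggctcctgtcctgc
Cpb1, chr2:104714613-104714912, minus strand: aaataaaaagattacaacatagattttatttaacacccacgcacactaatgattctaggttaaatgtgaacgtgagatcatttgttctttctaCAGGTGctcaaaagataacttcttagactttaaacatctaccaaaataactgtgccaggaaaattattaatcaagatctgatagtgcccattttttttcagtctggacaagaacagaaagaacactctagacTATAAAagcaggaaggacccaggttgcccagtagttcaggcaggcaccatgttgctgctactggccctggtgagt
Pnlip, chr1:267784360-267784659, plus strand: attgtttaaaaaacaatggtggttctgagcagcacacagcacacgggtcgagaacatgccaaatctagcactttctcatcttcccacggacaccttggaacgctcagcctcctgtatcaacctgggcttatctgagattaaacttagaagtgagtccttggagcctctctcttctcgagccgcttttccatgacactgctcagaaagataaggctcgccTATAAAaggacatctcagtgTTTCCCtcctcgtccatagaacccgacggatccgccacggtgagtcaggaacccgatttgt

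A promoter was at hand for 14 of the 15 acinar genes that rose. CACCTG was found in 7 of the 14 windows and in 18.8% of the 33469 rat promoter windows of the same length, TTTCCC in 8 and in 25.1%, and both together in 4 and in 4.38%. TATAAA was found in 9 of the 14 and in 14.2% of all windows, and in these 9 genes the first base of the match before the start lay 25 to 61 bases from it. Reg1a had a further match 37 bases after the start. A match describes the letters only and was not tested as a binding site.

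Among the serine proteases, Prss1, a trypsinogen gene, read 1040.3 and 1039 on the sham arrays and 5339.9 and 4262 on the 1 h arrays, and the groups did not overlap. This was a 4.59-fold rise (log2 change 2.20, SE 0.16, adjusted p = 0.00169). The other trypsinogen gene Prss2 read 88.2 and 52.6 in sham and 956 and 877 at 1 h on V01274_at, and 14.2 and 47.7 in sham against 168 and 206 at 1 h on L00131cds_s_at. Ctrb1, which encodes chymotrypsinogen, went from 355 and 577 to 3821 and 4761, a log2 change of 3.24 (SE 0.26). For these 3 genes both 1 h arrays lay above all 8 other arrays. The elastase gene Cela2a read 1343 and 1212 in sham and 5097 and 6764 at 1 h (4.6-fold, adjusted p = 0.00268). Prss3b, a further trypsin gene, read 177 and 136 in sham against 1112 and 968 at 1 h. Its relative Prss3bl1 read 19.1 and 27.6 in sham and 157 and 219 at 1 h, and the signal of such close copies cannot be told apart with certainty on these probe sets.

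The carboxypeptidase genes behaved alike: Cpb1 read 374 and 393 in sham and 2980.2 and 2438 at 1 h, and Cpa1 394 and 562 in sham against 2465 and 2562 at 1 h. The log2 change of Cpb1 was 2.81 (SE 0.16, adjusted p = 0.00045). Among the lipases, Pnlip, the pancreatic triglyceride lipase, read 255 and 277 in sham against 2529 and 2466 at 1 h on one probe set and 1293 and 1271 in sham against 6693 and 7254 at 1 h on the other, and both were called. Pla2g1b, the secreted phospholipase of pancreatic juice, read 412 and 452 in sham and 1697 and 1886 at 1 h. The bile salt-stimulated lipase gene Cel read 385 and 258 in sham against 1763 and 1570.5 at 1 h. The amylase gene Amy2a3 had the smallest called change of the group, from 3015 and 3236 to 8972 and 9305 (2.93-fold).

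Rnase1, a secreted ribonuclease, read 146 and 129.6 in sham and 1112 and 1911 at 1 h (10.6-fold). The zymogen granule membrane gene Gp2 read 11.2 and 19.1 in sham, under the floor, and 137 and 142 at 1 h. On M62930_at, Reg1a, a secreted lectin of acinar cells, read 25.1 and 5.6 in sham against 439.8 and 331 at 1 h, at least 10.5-fold higher. On E01983cds_s_at it went from 173 and 156 to 566 and 607 and did not pass (adjusted p = 0.206). Of the 12 genes that did not pass, 9 had both 1 h arrays above both sham arrays, namely the proteases Cela1 and Ctrc, the lipase-related genes Clps, Pnliprp1 and Pnliprp2, the granule genes Cuzd1, Sycn and Zg16, and Reg1a. The groups overlapped for the glycoprotein gene Dmbt1, the kallikrein Klk1 and the trypsin inhibitor Spink1. Higher 1 h arrays without overlap occurred in 23 of 26 acinar genes and in 21.8% of all tested probe sets.

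The summed intensity of the 26 acinar genes was 12743 and 13136 on the sham arrays and 50990 and 54454 on the 1 h arrays, and it ran from 3906 to 16967 on the 6 later burn arrays. Both 1 h arrays lay above all 8 other arrays for 23 of the 26 genes. At the later times the list lay on both sides of sham, and its median log2 change from sham was -1.14 at 4 h, 0.30 at 8 h and -0.95 at 24 h. Both arrays lay below both sham arrays for 21 of the genes at 4 h, for 1 at 8 h and for 20 at 24 h. Of 5 tested pancreatic islet markers 0 were called, a share that 0.799% called higher over all probe sets would also give. Their median was 0.08, 2 of the 5 were higher without overlap, and the insulin gene Ins1 read 964 and 804 in sham and 1013 and 1064 at 1 h on M25584_at. The insulin gene Ins2 was lower without overlap on rc_AI014020_f_at, 101 and 195 in sham against 44.2 and 38.9 at 1 h (adjusted p = 0.167). On J04807mRNA_i_at the groups of Ins2 overlapped. Ptf1a, the factor that specifies acinar cells, was under the floor on all 4 arrays (6.9 and 8.7 in sham and 12.8 and 10.9 at 1 h) and was not tested. In tissue RNA, more acinar cells and more RNA per cell cannot be told apart.

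**Figure D2:**
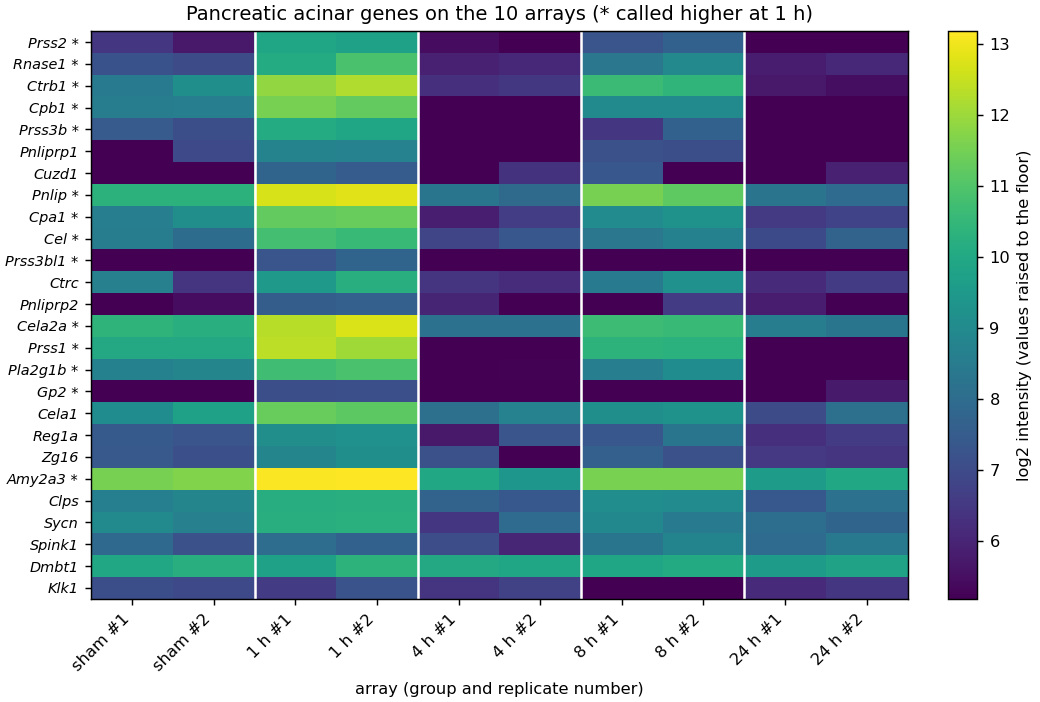
Log2 intensity, with values raised to the floor, of the 26 tested acinar genes (rows, by falling change at 1 h) on the 10 arrays (columns, by group). The 1 h columns are the brightest for 23 of the 26 genes, the 4 h and 24 h columns are mostly darker than sham, and stars mark the 14 genes called higher at 1 h.

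Among the acinar genes the calls of Prss1, Prss2 (V01274_at), Ctrb1, Cela2a, Cpb1, Pnlip on both probe sets, Rnase1, Pla2g1b, Prss3bl1 and Reg1a (M62930_at) held with each of the 10 arrays left out in turn. Those of Prss3b, Amy2a3 and Prss2 on L00131cds_s_at ended with any of the 4 compared arrays left out (adjusted p up to 0.106, 0.144 and 0.103). Cel did not pass without either 1 h array or sham array 2 (up to 0.116), and Cpa1 without either 1 h array or sham array 1 (up to 0.0857). Gp2 did not pass without 1 h array 2 or sham array 2 (up to 0.0537). Pla2g1b ended at a floor of the 10th percentile (adjusted p = 0.075), Prss3bl1 at one of the 50th (adjusted p = 0.127), and Gp2 and Prss2 on L00131cds_s_at at either. An intensity trend and robust variance also ended the calls of Prss3bl1, Gp2 and Prss2 on L00131cds_s_at. The number of the 26 genes called was 10 without 1 h array 1, 9 without 1 h array 2, 13 without sham array 1 and 11 without sham array 2, and 24 of 26 or more had a log2 change above 0 in each case.

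Cytochrome P450 genes changed in both directions. Of 39 tested genes 2 rose, 1 fell and 36 did not pass, with a median log2 change of -0.03. Over all probe sets 0.799% were called higher and 0.647% lower. Without overlap, 11 of the 39 were higher and 11 lower, beside 21.8% and 21.0% of all tested probe sets. Cyp2c11, the main male-specific P450 of rat liver and a steroid hydroxylase, read 1238 and 1290.1 on the sham arrays and 4412 and 4448 on the 1 h arrays, with no overlap. Its log2 change was 1.81 (SE 0.15, adjusted p = 0.00243), and its 2 other probe sets rose 2.3-fold and 2.73-fold. Cyp2a2, another male-specific hydroxylase, read 1619 and 1780.4 in sham against 4327 and 3706 at 1 h (2.36-fold, adjusted p = 0.0125). Cyp2b2, the phenobarbital-inducible P450, fell on both of its probe sets, from 3992 and 3363 to 1602 and 1445 on J00728cds_f_at and from 2899 and 3529.7 to 1494 and 1346 on K01721mRNA_s_at. These probe sets share sequence with close relatives of the same subfamily, so the signal may be split between genes.

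The Cyp2b3 probe set rc_AI169735_at read 294 and 436 in sham and 7.1 and 8.2 at 1 h, where both values were under the floor, at least 9.82-fold lower (adjusted p = 0.000721). The 2 other tested probe sets of Cyp2b3 did not share this difference. On rc_AI169735_g_at, named for the same transcript, the values were 2244 and 2072 in sham against 2627 and 1949.8 at 1 h (adjusted p = 0.942), and on M20406_at 14673 and 11495 in sham against 11869 and 11614 at 1 h (adjusted p = 0.808). On the later arrays rc_AI169735_at ran from 8.9 to 231, low at 4 h and 24 h and closer to sham at 8 h, as the plot of intensities by group shows.

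Of genes that differ between the sexes in rat liver, 10 were looked at after their values were seen, and most of their probe sets lay on the same sides. The 5 genes known as male-biased, Cyp2c11, Cyp2a2, Cyp2c13, Cyp3a2 and Hsd3b5, had both 1 h arrays above both sham arrays on all 8 of their probe sets, with log2 changes of 0.22 to 1.81, and 5 of the 8 were called. Hsd3b5, a hydroxysteroid dehydrogenase, read 372 and 498 in sham and 1099 and 1314 at 1 h. The 5 genes known as female-biased, Cyp2c12, Cyp2a1, Sult2a1, Sult2a2 and Sult2a6, lay lower on both 1 h arrays than on both sham arrays on 11 of 12 probe sets, with log2 changes of -1.49 to -0.25, and 4 of the 12 were called. Among all tested probe sets 21.8% were higher and 21.0% lower without overlap. Most of the 12 female-biased probe sets are of the Sult2a family, whose members share sequence, so their agreement may not be that of separate genes. Cyp2c7, also known as female-biased but not among the 10, went the other way. It read 14986 and 13485 in sham against 23503 and 23917 at 1 h without overlap and did not pass (adjusted p = 0.0766). Cyp2c12, the main female-specific P450, read 1816 and 1731 in sham and 972 and 679 at 1 h on J03786_s_at and did not pass (adjusted p = 0.211). The median log2 changes of the male-biased probe sets from sham were 1.22 at 1 h and then -0.05, 0.30 and 0.76 at the later times in order, and those of the female-biased probe sets -0.94, -0.68, -0.63 and -0.86. As the sources used here give no sex, whether it differed between the groups was not tested.

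Of 32 tested conjugation enzymes 0 rose, 3 fell and 29 did not pass by the probe set used for the list, with a median log2 change of -0.14. Over all probe sets 0.647% were called lower. Both 1 h arrays lay below both sham arrays for 15 of the 32 and above them for 6, beside 21.0% and 21.8% of all tested probe sets. Those called lower were Ugt2b1, Gsta3 and Sult2a6, and Sult2a2 fell and Ephx2 rose on another probe set. Ugt2b1, which glucuronidates steroids and drugs, read 3168 and 2710.4 in sham and 898 and 868 at 1 h, below all 8 other arrays. It was 3.32-fold lower (log2 change -1.73, SE 0.16, adjusted p = 0.00298). Gsta3, a glutathione transferase, read 4148 and 4039.7 in sham against 1577 and 1629 at 1 h on S82820mRNA_s_at. Sult2a6, a hydroxysteroid sulfotransferase, fell on all 3 of its probe sets, on X63410cds_f_at from 14835 and 21757 to 6208 and 6631, and Sult2a2 fell on rc_AA945589_at from 714 and 974 to 292 and 317. The 2 other Sult2a2 probe sets had log2 changes of -0.62 and -0.74 and did not pass. Ephx2, the soluble epoxide hydrolase, rose on X65083cds_at from 155 and 172 to 419.9 and 372. The calls of Cyp2c11 on M18363cds_s_at, Cyp2b3 and Ugt2b1 held with each array left out. Those of Cyp2a2, Gsta3, Ephx2 and the other Cyp2c11 probe sets ended with any of the 4 compared arrays left out (up to 0.0899, 0.0815, 0.0963 and 0.0984). Sult2a6 on X63410cds_f_at, Sult2a2 and Cyp2b2 on K01721mRNA_s_at did not pass without either 1 h array or sham array 2 (up to 0.127, 0.138 and 0.132), nor Cyp2b2 on J00728cds_f_at without either 1 h array or sham array 1 (up to 0.0924). Hsd3b5 passed only without either 8 h array.

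The largest called decrease was that of Ces2e, a carboxylesterase that hydrolyses esters and amides. It read 1450.2 and 1174 on the sham arrays and 58.1 and 35.1 on the 1 h arrays, one of them under the floor and raised to it, and the groups did not overlap. This was a 28.4-fold difference (log2 change -4.83, SE 0.42, adjusted p = 0.00268) and held with each array left out. Ces2e passed the filter only through the sham arrays, where it was high, and it was also called without the filter. All 6 later burn arrays were low as well, from 31.3 to 105, so Ces2e separated sham from every burn array. The difference between 1 h and the later burn arrays did not pass (log2 difference -0.69, adjusted p = 0.289).

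Of 37 tested genes of bile acid metabolism, transport and nuclear receptors, 2 fell (Abcc3 and Nr1d1), 0 rose and 35 did not pass, with a median of -0.07. Over all probe sets 0.647% were called lower. Without overlap, 11 of the 37 were lower and 6 higher, beside 21.0% and 21.8% of all tested probe sets. Nr0b2, the small heterodimer partner that represses bile acid synthesis, fell on a probe set other than the one used for the list. It read 726 and 651 in sham and 165 and 79.4 at 1 h on D86745exon_s_at, a 6.0-fold decrease (adjusted p = 0.0126). Its 2 other probe sets were lower without overlap, with log2 changes of -1.63 and -0.87, and did not pass. Abcc3, which exports conjugates across the sinusoidal membrane, read 261 and 249 in sham against 86.2 and 18.5 at 1 h, and the second 1 h array was under the floor. The call of Nr0b2 ended without either sham array (up to 0.0713). That of Abcc3 held only without 1 h array 1, where its log2 change was -2.81, against -1.57 without 1 h array 2 (up to 0.161), and it ended with the floor at the 10th percentile, with no filter and with quantile normalization. Among 97 solute carrier and sodium pump genes, 1 rose and 1 fell, a share near the 1.45% called over all probe sets. Atp1b1, the beta subunit of the sodium pump, read 656 and 751 in sham against 1571 and 1683 at 1 h, and the glycine transporter gene Slc6a9 769.9 and 879 in sham against 243 and 301 at 1 h. Neither call held with any of the 4 compared arrays left out (up to 0.126 and 0.139). The other tested probe sets of Atp1b1 did not pass. On rc_AI230614_s_at its log2 change was 0.79 (adjusted p = 0.385), and on X63375exon_at all 4 arrays were under the floor.

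**Figure D3:**
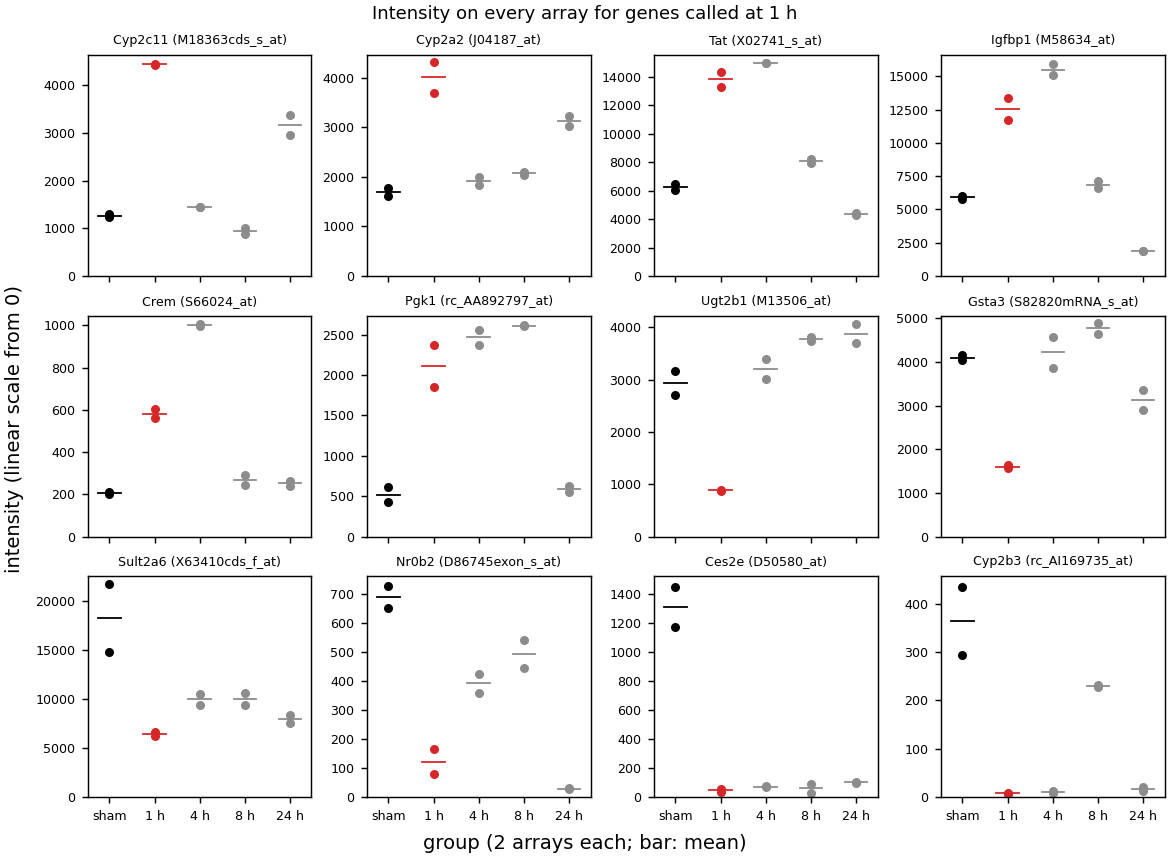
Intensity on a linear scale from 0 for 12 probe sets called at 1 h, with 1 point per array, a bar at the mean of each group, and sham in black, 1 h in red and later burn arrays in grey. Tat, Igfbp1 and Crem rise from sham to 1 h and are highest at 4 h, Ugt2b1 and Gsta3 are lowest at 1 h, and Ces2e is low on every burn array.

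Some genes under hormonal control were called. Of 19 tested glucocorticoid-induced genes, 2 rose and 0 fell, while 17 did not pass, and 0.799% of all probe sets were called higher. Both 1 h arrays lay above both sham arrays for 13 of the 19 and below them for 2, beside 21.8% and 21.0% of all tested probe sets. Their median log2 change was 0.37. Tat, tyrosine aminotransferase, read 6053 and 6476 in sham and 14353 and 13316 at 1 h, and Igfbp1, which binds insulin-like growth factors, 5989.7 and 5824 in sham against 13408 and 11709.5 at 1 h. Neither overlapped, and both were over 2-fold higher (log2 changes 1.14 and 1.09, SE 0.14 and 0.15, adjusted p = 0.012 and 0.017). Errfi1, a feedback inhibitor of the epidermal growth factor receptor in the same list, rose on another probe set, M23572_at, from 183 and 221 to 402 and 402. The 3 tested probe sets of Errfi1 had log2 changes of 0.02 to 1.00, and the others did not pass. Got1, the cytosolic aspartate aminotransferase, read 1493 and 1263 in sham against 2985 and 2400.1 at 1 h without overlap and did not pass (adjusted p = 0.0793). The same was found for Pdk4, the kinase that restrains pyruvate use, at 129.8 and 84.7 in sham against 301 and 378 at 1 h (adjusted p = 0.0643), and for Sgk1, a glucocorticoid- and serum-responsive kinase, at 243 and 145 in sham against 579 and 691 at 1 h (adjusted p = 0.0794). Among 29 genes of insulin and growth factor signalling 2 rose, Igfbp1 and Pik3r1, and 0 fell (median 0.21). Pik3r1, the regulatory subunit of phosphoinositide 3-kinase, was under the floor in sham (34.6 and 26.6) and read 134 and 174 at 1 h, at least 4.2-fold higher. It passed the filter only through the 1 h arrays, where it was high, so its rise was in part set by the filter. Errfi1 did not pass with any of the 10 arrays left out (up to 0.201). With any of the 4 compared arrays left out, Tat and Igfbp1 did not pass (up to 0.0887 and 0.121), and Pik3r1 did not pass without 1 h array 2 or sham array 2 (up to 0.051), nor with the floor at the 10th or the 50th percentile or an intensity trend and robust variance.

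Crem, a cyclic AMP-responsive transcription factor gene, read 200.1 and 211 in sham and 559 and 602 at 1 h on S66024_at. It rose 2.82-fold (log2 change 1.50, SE 0.16, adjusted p = 0.00611), without overlap, and its adjusted p was 0.0592 with 1 h array 2 left out. Its tested probe sets had log2 changes of 0.75 to 1.50, and the others did not pass. Crem has 3 promoter windows in RefSeq, and 1 of them, shown here because it holds the cyclic AMP response element TGACGTCA at 2 places (in capitals; the letters read the same on both strands), was among 14 of all 33469 windows with 2 or more, or 0.0418%.
Crem, chr17:58985240-58985539, plus strand, GRCr8: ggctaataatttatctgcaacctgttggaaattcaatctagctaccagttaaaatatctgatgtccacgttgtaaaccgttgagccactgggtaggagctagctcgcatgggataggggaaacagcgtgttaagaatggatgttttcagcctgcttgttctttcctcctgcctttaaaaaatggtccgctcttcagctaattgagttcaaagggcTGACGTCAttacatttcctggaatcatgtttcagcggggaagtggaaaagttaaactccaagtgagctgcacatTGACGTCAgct
Which start site gave the transcripts measured here was not tested.

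Immediate early and serum-responsive genes showed 0 risen, 1 fallen and 31 not passing of 32 tested, with a median log2 change of 0.22. Over all probe sets 1.45% were called. Without overlap, 17 of the 32 were higher and 8 lower, beside 21.8% and 21.0% of all tested probe sets. The one called lower was Junb, a subunit of the AP-1 factor, which read 1028 and 996 in sham and 381 and 305 at 1 h. Ier3, a stress-induced survival gene, fell on X96437mRNA_g_at from 1059.6 and 944 to 386 and 477. Ier3, like Crem, was called on a probe set other than the one used for the list. Nr4a1, an orphan nuclear receptor induced by cyclic AMP, read 38.8 and 39.5 in sham against 267 and 199 at 1 h on U17254_g_at and did not pass (adjusted p = 0.0625). The zinc finger gene Egr1 was lower without overlap on AF023087_s_at, 929 and 968 in sham against 526 and 547 at 1 h, and did not pass (adjusted p = 0.0667). The calls of Junb and Ier3 ended with any of the 4 compared arrays left out (up to 0.106 and 0.121).

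Of 8 clock genes, 0 rose and 1 fell by the probe set used for the list (median -0.03). Over all probe sets 0.647% were called lower. Without overlap, 1 of the 8 was higher and 3 were lower, beside 21.8% and 21.0% of all tested probe sets. Nr1d1, the repressor REV-ERB alpha, read 848 and 826 in sham and 447 and 361 at 1 h on M25804_g_at, and Dbp, an output factor of the clock, 403 and 584 in sham against 212 and 184 at 1 h on J03179_at. All later burn arrays were below sham too, at 206 to 380.5 for Nr1d1 and 32.6 to 291 for Dbp. The sources used here give no time of day for the groups. Nr1d1 did not pass with any of the 10 arrays left out (up to 0.19), and Dbp passed only without sham array 1 (otherwise up to 0.23).

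Few genes of amino acid and glucose metabolism were called. Gnmt, glycine N-methyltransferase, fell on X06150cds_at from 2936 and 3017 to 1218 and 1318 and on X06150cds_g_at from 8042 and 7594 to 3800.4 and 4024. Of 42 tested genes of amino acid catabolism and the urea cycle, 1 rose (Tat), 1 fell (Gnmt) and 40 did not pass (median -0.15). Over all probe sets 1.45% were called. Both 1 h arrays lay below both sham arrays for 22 of the 42 and above them for 8, beside 21.0% and 21.8% of all tested probe sets. The alanine aminotransferase gene Gpt was lower without overlap, 2022 and 1766 in sham against 837 and 1046 at 1 h, and did not pass (adjusted p = 0.0625). Psat1, of serine synthesis, read 222 and 154 in sham and 5.9 and 14.5 at 1 h on rc_AI102868_g_at, at least 5.08-fold lower, and its 2 other probe sets both had log2 changes of -1.29 and did not pass. Pgk1, phosphoglycerate kinase, was the only called gene of 28 in glucose and glycogen metabolism (median -0.02), and read 426 and 609 in sham against 2372 and 1847 at 1 h on rc_AA892797_at (4.11-fold, adjusted p = 0.00642). Its probe set M31788_g_at went the other way, 1271 and 1248 in sham against 1091 and 1049.7 at 1 h, and did not pass (adjusted p = 0.615). The Pgk1 call held with each array left out. Gnmt did not pass with any of the 4 compared arrays left out on X06150cds_at (up to 0.0863), or with any array but those of 8 h left out on X06150cds_g_at (up to 0.188), and Psat1 did not pass without either 1 h array or sham array 1 (up to 0.0857).

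The other called genes were alone in their lists or in none. Prim1, a subunit of DNA primase, read 155 and 137 in sham and 12.8 and 26.0 at 1 h, under the floor. Psmd1, a subunit of the proteasome's regulatory particle, read 315 and 299 in sham against 56.4 and 71.7 at 1 h on AJ006340_s_at, while its 3 other probe sets did not pass and had log2 changes between -0.24 and -0.14. The elongation factor gene Supt5h read 292 and 396 in sham against 92.6 and 104 at 1 h, and Gm2a, the ganglioside activator of lysosomes, 1514 and 1667 in sham against 771 and 685 at 1 h. The other tested probe set of Supt5h had a log2 change of -0.22 and did not pass. Among higher genes, Akr1c13, an aldo-keto reductase, read 297 and 221 in sham against 921 and 1182 at 1 h, and Il5, a cytokine of eosinophil growth, 38.1 and 27.5 in sham against 171 and 188 at 1 h, with a range of 24.7 to 172 later. The zinc finger gene Zfp354a read 4.7 and 53.0 in sham against 187 and 157 at 1 h, and Fam111a 18.0 and 5.0 in sham against 203 and 158 at 1 h. RT1-CE16, a class I histocompatibility gene, read 3602 and 3880.3 in sham against 8814 and 9221 at 1 h on a probe set of a gene family whose members share sequence.

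Smaller called changes were those of Eif4ebp1, a repressor of translation, and Cnn3, a calponin, which fell by 1.03 and 1.01 on the log2 scale. Sephs2, of selenocysteine synthesis, and Tvp23b, of the Golgi, rose by 0.94 and 0.84. The calls of Prim1 and Il5 held with each array left out, but like that of Psmd1, and of Psat1 above, ended with the floor at the 50th percentile. Prim1 and Psat1 on rc_AI102868_g_at passed the filter only through the sham arrays, where they were high. Their decrease was thus in part set by the filter, and leaving arrays out did not change which probe sets were tested. Both were also called without the filter. Psmd1, Gm2a and Zfp354a did not pass with any of the 4 compared arrays left out (up to 0.118, 0.173 and 0.121), RT1-CE16 not with any sham, 1 h or 4 h array left out (up to 0.154), and Akr1c13 not without 1 h array 2 or sham array 2 (up to 0.0689). Supt5h and Fam111a passed only without an 8 h array (otherwise up to 0.217 and 0.198). Eif4ebp1, Cnn3, Sephs2 and Tvp23b did not pass with any of the 10 arrays left out (up to 0.232, 0.237, 0.223 and 0.242). These 4 calls, and those of Supt5h, Fam111a, Zfp354a, Hsd3b5, Dbp and Errfi1, also ended with the floor at the 10th percentile. With an intensity trend and robust variance those of Zfp354a, Dbp, Errfi1 and Tvp23b ended. Quantile normalization ended those of Supt5h, Fam111a, Cnn3, Errfi1 and Tvp23b, the lack of a filter those of Supt5h, Fam111a, Hsd3b5 and Dbp, and the floor at the 50th percentile those of Fam111a and Zfp354a.

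Of the 55 called genes, 24 had more than 1 tested probe set, and in 5 of them every probe set was called: Cyp2b2, Cyp2c11, Pnlip, Prss2 and Sult2a6. In 4 genes, Cyp2b3, Eif4ebp1, Gsta3 and Pgk1, the probe sets had log2 changes of both signs. Gsta3 read 82.7 and 66.6 in sham and 103 and 83.2 at 1 h on rc_AA945082_at, against a decrease on S82820mRNA_s_at. The sources used here do not say which transcripts or relatives each of these probe sets picks up.

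**Figure D4:**
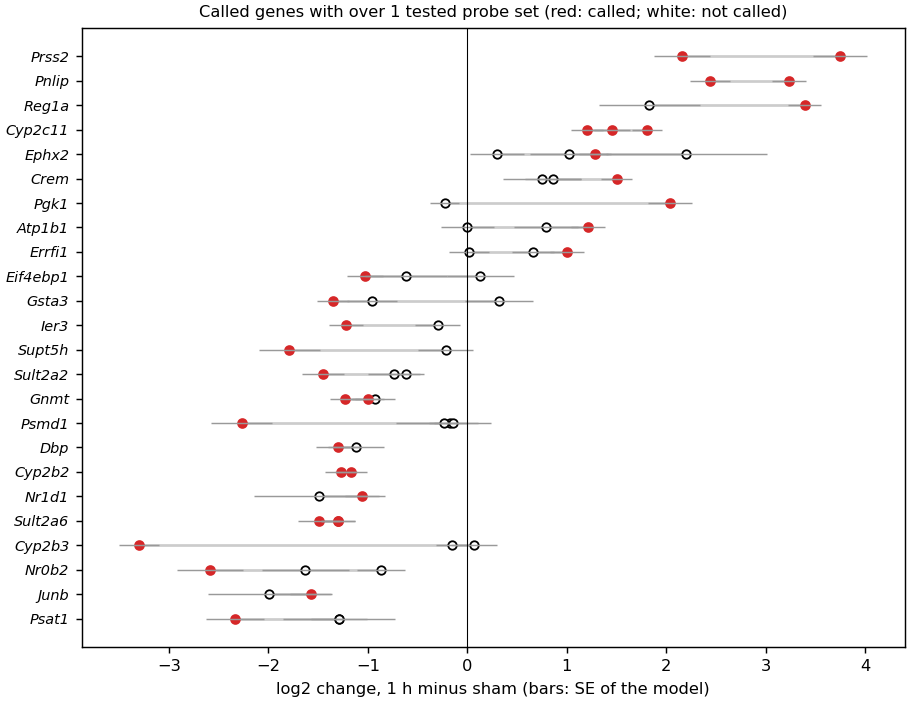
Log2 change at 1 h against sham with the standard error of the model (horizontal axis) for every tested probe set of the 24 called genes with more than 1, in red where called and white where not. Prss2, Pnlip and Cyp2c11 are red throughout on the right, Cyp2b2 and Sult2a6 on the left, and Cyp2b3 and Pgk1 join a called probe set to others near 0 or on the other side.

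The largest increase of all belonged to a probe set listed with several genes, M27434_s_at, which stays unnamed. It read 2456 and 2475 in sham and 41678 and 43794 at 1 h (17.3-fold, log2 change 4.12, SE 0.14, adjusted p = 6.95e-05), and 1165 to 11309 on the later burn arrays. The probe set M93257_s_at, not listed with a gene, read 10895 and 13237 in sham and 1848 and 2436 at 1 h, below every other array. Of the 13 unnamed probe sets 5 were higher and 8 lower, and the calls of these 2, of M23721_at (higher) and of L23128_g_at (lower) held with each array left out.

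The lists of acute phase and inflammatory genes held no call at 1 h, and the called cytokine gene Il5 is in neither list. All 23 tested acute phase proteins failed to pass (median log2 change 0.10, range -0.54 to 0.54), and so did all 24 cytokine, chemokine and NF-kappaB target genes (median 0.14). Ceruloplasmin, Cp, read 7058 and 7052 in sham and 10548 and 9935 at 1 h without overlap on L33869_at (adjusted p = 0.227), and Cebpb, a transcription factor of the acute phase response, 1585 and 1877 in sham against 3292 and 2778 at 1 h (adjusted p = 0.0902). There were 0 calls among 24 heat shock proteins and chaperones (median -0.04) and 39 ribosomal proteins (-0.02). The same held for 26 proteasome subunits by the probe set used for the list (-0.15) and 55 genes of electron transport and ATP synthase (-0.17). These counts of calls are near the 1.45% called over all probe sets. Lower without overlap were 13 of the 26 proteasome subunits and 24 of the 55 electron transport genes, beside 21.0% of all tested probe sets.

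Some genes close to the threshold had groups that did not overlap. The last called probe set had an adjusted p of 0.0492 and the first one not called 0.0508, which was Alas1, the rate-limiting enzyme of heme synthesis, at 1059 and 1292 in sham and 2451 and 3443 at 1 h on J03190_g_at, and 702 and 1202 in sham against 3141 and 2637 at 1 h on J03190_at. Foxa2, a liver transcription factor, read 545 and 434 in sham against 209.5 and 230.0 at 1 h (adjusted p = 0.052). Igfbp2, another binding protein of insulin-like growth factors, was lower on J04486_at, 256 and 219 in sham against 88.5 and 121 at 1 h (adjusted p = 0.0564). Insig1, a regulator of cholesterol synthesis, read 2859 and 3278 in sham against 5164 and 5531 at 1 h on L13619_at (adjusted p = 0.0882), and 0 of 19 genes of cholesterol synthesis and uptake were called (median 0.16). Me1, the malic enzyme gene, read 179 and 182 in sham against 393 and 328 at 1 h on rc_AI008020_at (adjusted p = 0.0817), among 36 genes of fatty acid metabolism with 0 calls. Over all probe sets 1.45% were called, so 0 calls in these 2 lists says little. Without overlap, 10 of the 19 cholesterol genes were higher and 2 lower, and 14 of the 36 were higher and 9 lower. The shares over all tested probe sets were 21.8% higher and 21.0% lower.

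Apart from hepatocyte and acinar genes, markers of cell types gave 0 calls: 0 of 8 for Kupffer cells and phagocytes (median 0.21), 0 of 4 for neutrophils (-0.65), 0 of 9 for lymphocytes (0.11), 0 of 7 for endothelium (-0.03), 0 of 12 for stellate cells and fibroblasts (0.04) and 0 of 8 for bile ducts (0.04). Skeletal muscle had 0 of 6 (-0.06) and adipose tissue 0 of 5 (-0.09), and the muscle actin gene Acta1 was under the floor on all 4 arrays. At the 1.45% called over all probe sets, lists this small would seldom hold a call, so 0 calls says little about a cell type. The 7 red blood cell genes had a median of 0.40 and 0 calls. Their summed intensity was 51258 and 53451 on the sham arrays and 62523 and 72035 on the 1 h arrays, without overlap, and the globin gene Hbb read 31253 and 32322 in sham against 36775 and 42082 at 1 h (adjusted p = 0.491). The class II histocompatibility gene RT1-Da read 497 and 439 in sham against 1212 and 955 at 1 h on M15562_g_at, and the class II chaperone gene Cd74 351 and 266 in sham against 613 and 671 at 1 h on X13044_at. Neither passed (adjusted p = 0.0726 and 0.172), and the groups overlapped on another Cd74 probe set, X13044_g_at (139.9 and 292 in sham against 346 and 193 at 1 h).

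**Figure D5:**
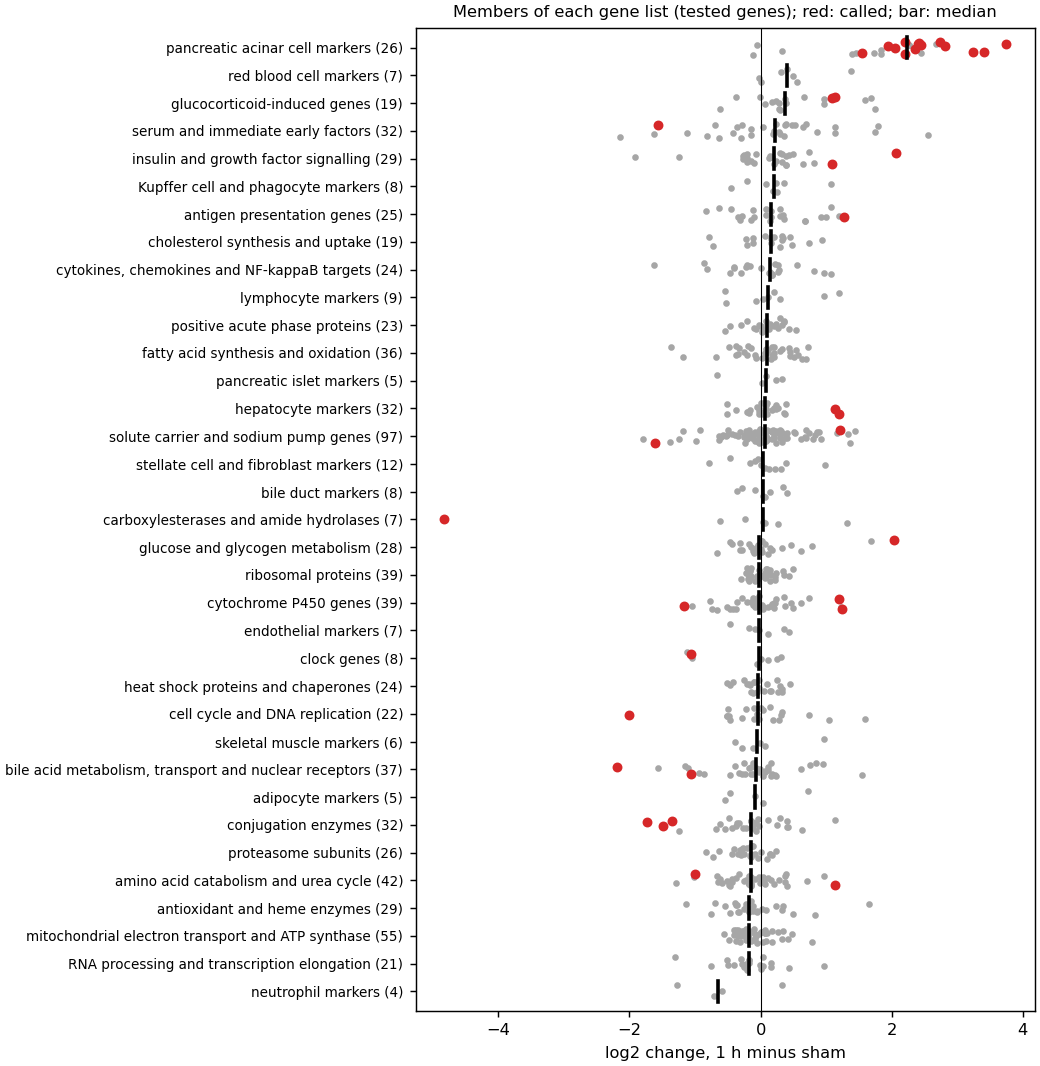
Log2 change at 1 h against sham (horizontal axis) of the tested genes of each gene list (vertical axis, number of genes in brackets), with called genes in red, others in grey and a black bar at the median. The acinar list lies apart at a median of 2.23, and the medians of the other lists lie between -0.65 and 0.40.

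The 1 h arrays were also compared with the mean of the later burn arrays, a contrast that leaves the sham arrays out but shares the 1 h arrays with the comparison above. limma called 353 probe sets (6.72%), 197 higher (3.75%) and 156 lower (2.97%) at 1 h, with a median log2 difference of 0.095 over all. The count was 96 and 90 with 1 h array 1 or 2 left out, 211 and 224 with 24 h array 1 or 2 left out, and 234 and 223 with the second array of 4 h or of 8 h left out. Of the probe sets called against sham, both 1 h arrays lay above all 8 other arrays for 30 of the 42 higher probe sets and below them for 15 of the 34 lower ones. Among the acinar genes 22 of 26 were higher at 1 h than later, with Prss1 at 3.5 to 1314 and Cpb1 at 8.4 to 522 on the later arrays. Cyp2b2 read 10103 to 30009.9 later on K01721mRNA_s_at; it was thus lower at 1 h than at any later time (log2 difference -3.49, adjusted p = 1.96e-05). Ugt2b1 was back at 3012 to 4066. Cholesterol synthesis genes were higher at 1 h than later in 10 of 19 cases, with 0 lower, and Onecut1, a hepatocyte factor, read 1614 and 1701 at 1 h and 244 to 546 later.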

How the data were processed

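The values were those of the deposited value table, intensities of 1-colour oligonucleotide arrays on a linear scale, which the authors had scaled, as the deposited values show, so that each array's mean without the lowest and highest 2% of values was nearly equal. The sources used here name no software for this, and detection calls, probe sequences and scanner files were not used here. Of 8799 probe sets, 59 controls were left out. Gene names came from GEO's platform annotation: 7018 probe sets had 1 symbol, 308 several and 1473 none, and no gene was named from the latter 2 kinds. The floor of 36.4 was the median over arrays of the 25th percentile; lower values were raised to it, and log2 was taken. The 5254 probe sets above an array's median on at least 2 of 10 arrays were fitted in limma 3.58.1 (R 4.3.3) with lmFit and eBayes, with 5 groups of 2 arrays in 1 model (5 residual degrees of freedom), and p-values were adjusted by Benjamini-Hochberg over all 5254. Every adjusted p in the text is from this limma fit. A probe set high in only 1 group could pass the filter through that group alone. Fits with an array left out kept the same tested probe sets. Lists used 1 probe set per gene, the one with the highest mean over all arrays.

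The rule named the 15 genes with the largest called increase and the 15 with the largest decrease against sham, from each list up to 4 tested members (by smallest p) and its defining members, the 8 largest called differences from later in each direction, and the other probe sets of these genes. The comparison, the lists and the rule were chosen with earlier results of these data known, and Gp2, Crem, Errfi1, Ier3, Ephx2, Hsd3b5, Akr1c13, Zfp354a, Gm2a, Eif4ebp1, Cnn3, Sephs2 and Tvp23b and the sex-biased genes were added after their values were seen. Alternatives were other floors, no filter, quantile normalization, limma with trend and robust settings, only the groups compared, the replicate block and each array left out. On simulated data for the comparison with sham, 40% of 2-fold and 73% of 4-fold changes were recovered over 5254 probe sets, with 4 false calls. The simulated noise was independent from array to array, and changes were set only at 1 h, with no difference among the other groups. The real arrays differ in this, so these rates may not hold for them. With 2 arrays per group, this number limits the precision.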

Additional observations from a re-analysis of the deposited data

Results flagged for a closer look

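For 16 genes the 1 h arrays differed from the mean of the later burn arrays by limma's test of this difference, on values raised to the floor. The sham arrays were not part of this contrast, and the 16 were taken by the rule for naming genes. Log2 differences (1 h minus later) of digestive enzyme genes were 5.32 for Prss1, 4.94 for Cpb1, 4.55 for Ctrb1, 4.53 for Pnlip, 4.39 for Pla2g1b, 4.21 for Prss3b and 3.94 for Cpa1. Of the 6 later arrays, 4 were under the floor for Prss1, Cpb1 and Prss3b, 3 for Pla2g1b and 2 for Pnlip on D88534_s_at, so these 5 differences are lower bounds and their order says nothing. Dusp1, a phosphatase of MAP kinases, was not called against sham (2558 and 2518 in sham and 3419.7 and 3245 at 1 h, adjusted p = 0.544) and ran from 13.3 to 760.0 later, a difference of 3.94 (adjusted p = 4.6e-05) with 1 later array under the floor.

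Lower at 1 h than later were Cyp2b2 (-3.49), Ugt2b1 (-2.03) and the acute phase genes A2m (-3.38), Lcn2 (-2.73) and Orm1 (-1.90). Orm1, which encodes orosomucoid, read 4811 and 5861 in sham, 3798 and 3534 at 1 h and 4639 to 44442 later (adjusted p = 0.000409 for the difference from later). On M23566exon_s_at A2m, alpha-2-macroglobulin, had overlapping sham and 1 h arrays, 324 and 969.5 in sham against 617 and 264 at 1 h, while on rc_AA900582_at, M22670cds_g_at and X13983mRNA_at it was higher at 1 h without overlap and was not called. Lcn2 read 60.9 and 97.1 at 1 h and 122 and 72.6 at 4 h, which overlap, and 4129.7 and 4017 at 8 h and 329 and 362 at 24 h. For Odc1, the first enzyme of polyamine synthesis, both 1 h arrays were under the floor on J04791_s_at (25.8 and 14.3), so its difference of -2.53 is set by the floor, and on J04792_at it was -1.31 and not called (adjusted p = 0.375). The difference was -2.36 for the ubiquitin-conjugating enzyme gene Ube2g2 and -2.14 for the ubiquitin ligase gene Znrf1, which had 1 of the 1 h arrays raised to the floor. The 2 sham arrays of Ube2g2, at 97.4 and 424, lay far apart.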

How the results depend on the processing

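With the floor at the 50th percentile, 133 probe sets were called against sham (72 higher and 61 lower), and 538 against the later burn arrays (309 higher). With an intensity trend and robust variance, 140 were called (72 higher and 68 lower), and 583 against later (302 higher and 281 lower). Without a filter, 54 were lower than sham. With only the groups compared, 0 were called against sham (0 higher and 0 lower). Quantile normalization gave 88 and the floor at the 10th percentile 56 called against sham. Leaving out each array in turn gave 29 to 75 called against sham (17 to 43 higher and 9 to 35 lower) and 90 to 282 against later (46 to 178 higher and 37 to 116 lower). Both totals were lowest without 1 h array 2. With 1 array left in a group, that array was assumed to vary like the other groups.

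The acinar median of 2.23 was 1.83 with the floor at the 50th percentile, 1.99 without a filter and 2.05 to 2.32 with 1 array left out. Of the medians of 35 lists under 17 alternatives, 595 in all, 504 stayed within the spread of the 2 arrays, and 0 of over 0.3 in size changed sign. Of 76 called probe sets, 18 passed under the 16 alternatives other than the fit to only the groups compared, and 58 did not pass under 1 or more. No called probe set changed direction under an alternative. Among the probe sets reported as not called, 4 genes did. For Cyp2b3, M20406_at was 0.03 without sham array 1 (-0.32 to 0.03 over arrays left out), and rc_AI169735_g_at was -0.15 without 1 h array 1 (-0.15 to 0.28). With arrays left out, the log2 change of Alb ran from -0.31 to 0.24 (0.04 with quantile normalization), that of A2m from -1.27 to 0.32 and that of Ube2g2 from -1.72 to 0.40. Low signal limits some of the 76 calls: 10 folds are bounds and 7 rest on the floor. The median of all probe sets moved between -0.009 and 0.039.

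The replicate block, with the array number in the titles as a term, gave 72 called against sham (41 higher and 31 lower), 65 of them among the 76, and 375 against later. It ended 11 of the 76 calls, those of Hsd3b5, Dbp, Errfi1, Supt5h, Fam111a, Eif4ebp1, Sephs2, Tvp23b and 3 unnamed probe sets. Deviations of same-numbered arrays from their group means correlated at 0.012 to 0.17 over pairs of groups, all above 0 and not all above 0.1, so whether the numbers pair the arrays is unknown.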
